A study of Mus musculus with 4 samples.

Results

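The genes described here carry glucose carbon through the cell: 2 glucose transporters, 15 genes of glycolysis, 4 of the pyruvate dehydrogenase step, 10 of the tricarboxylic acid (TCA) cycle and 6 of the pentose phosphate pathway. These 37 genes were taken from a list of names by pathway, drawn up with earlier results of these data known, and all 37 were among the 36088 genes of the deposited table. Their RNA was measured in germ cells of wild-type male mouse fetuses. The cells had been sorted from fetal testes kept in culture with CBR-5884 or with DMSO, its solvent, in a study of serine metabolism in male germ cell differentiation. The design text calls CBR-5884 an inhibitor of serine metabolism, and its known target is Phgdh, which starts the making of serine out of a glycolytic intermediate. There were 2 libraries per condition, which the design text names biological replicates, and the sample titles give day 14. The sources used here do not give the dose, the time with the compound, the marker used for sorting or the age of the fetuses. The libraries are called by condition and by the number, 2 or 4, that the table gives them.

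Glycolysis splits glucose into pyruvate in the cytosol, and lactate dehydrogenase can reduce that pyruvate to lactate. In mitochondria, the pyruvate dehydrogenase complex turns pyruvate into acetyl-CoA, which the TCA cycle oxidises to feed respiration. The pentose phosphate pathway branches off at glucose phosphate and yields NADPH and ribose phosphate for nucleotides. Serine synthesis branches off at phosphoglycerate, which lies between the enzymes Pgk1 and Pgam1, so the glycolytic genes stand upstream and downstream of the step that CBR-5884 is known to inhibit. Spermatogenic cells are also known for replacing several of these enzymes with testis-specific copies at meiosis.

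The libraries held an estimated 22400000 to 28200000 reads, with 22100 to 22988 genes above 0. Levels are given as deposited in TPM, a measure of transcript abundance within a library that corrects for transcript length and so allows genes to be compared. The 8 germ cell markers, among them Ddx4 and Dazl, summed to 2351.5 and 2303.1 TPM under DMSO and to 2406.3 and 2366.8 TPM under CBR-5884. The 6 Sertoli cell markers (Sox9, Amh, Wt1, Gata4, Dhh and Cldn11), all above 1 TPM on average, summed to 110.9 and 60.7 TPM under DMSO and to 93.2 and 77.1 TPM under CBR-5884 (libraries 2 and 4 in each case). The Sertoli sum was therefore higher in library 2 of both conditions. Leydig markers summed to 4.5 to 6.7 TPM, with 4 of 5 under 1 TPM on average. Endothelial markers summed to 9.2 to 10.4 TPM, peritubular and stromal markers to 42.4 to 52.8 TPM, and macrophage and blood markers to 2.8 to 11.7 TPM, the globin genes Hbb-bs and Hba-a1 being at 0 in every library. Without scaling to equal library totals, the germ cell, endothelial, and peritubular and stromal sums were also higher in library 2 of both conditions. The Leydig sum and the macrophage and blood sum were not. The endothelial gap under DMSO was narrow (9.9 and 9.8 TPM). Over all genes CBR-5884 library 4 had the lowest total, at 966761 TPM, so a narrow order between the CBR-5884 libraries can depend on scaling. In sorted pools of cells, fewer cells of a type and less RNA per cell cannot be told apart.

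None of the 37 genes passed the test for a change with CBR-5884. In limma fitted over the 14920 genes with a mean of at least 1 TPM, 0 genes, or 0%, passed the threshold of 0.05 on the adjusted p. Among the 37 genes no adjusted p was below 0.998. At an unadjusted p under 0.05 there was 1 of the 37 genes (2.7%), Pdhb, beside 546 of all genes tested (3.66%). Without DMSO library 2 there were 1034 such genes in all, and Tkt and Tpi1 took the place of Pdhb. With CBR-5884 library 2 left out the genes were Pgls and Rpia, and with either library 4 left out there was none. The groups did not overlap, meaning that both CBR-5884 libraries lay on 1 side of both DMSO libraries, for 14 of the 37 genes (37.8%), beside 31.3% of all genes tested. Of these 14, 7 were higher with CBR-5884 (18.9%, against 13.6% of all genes) and 7 were lower (18.9%, against 17.7% of all genes). The higher ones were Slc2a3, Pfkp, Aldoc, Tpi1, Pdk1, Dlat and Sucla2, and the lower ones Hk2, Pdhb, Cs, Idh2, Ogdh, Taldo1 and Rpia. Overlap was read throughout from the deposited TPM, which were not scaled to equal library totals. CBR-5884 library 4 had the lowest total, so a group that lay lower by a narrow gap can depend on this.

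The differences were small against what the libraries could resolve. On the log2(TPM + 1) scale, which understates the change of low genes, the difference between CBR-5884 and DMSO ran from -0.31 for Idh2 to 0.33 for Pfkp. Its median was -0.017 over the 37 genes and -0.011 over all genes tested, with 17 of the 37 above 0 (45.9%, against 47.2% of all genes). The 95% interval lay within a 2-fold change in either direction for 37 of 37 genes, and for 85.4% of all genes. It lay within 1.5-fold for 30 of 37 genes, and for 58.3% of all genes. Within 1.25-fold it lay for 17 of 37 genes, and for 22.2% of all genes. Summed over the 37 genes the level was 5312 ± 57.8 TPM under DMSO and 5245 ± 88.0 TPM under CBR-5884 (SD, n = 2 each). Sums throughout were not scaled to equal library totals. Over all genes CBR-5884 library 4 totalled 966761 TPM, and the other libraries 997741 to 1002976 TPM. A lower sum under CBR-5884 carries this shortfall, in part or in whole. With equal library totals the median difference of all genes went from -0.011 to 0.0147.

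**Figure D1:**
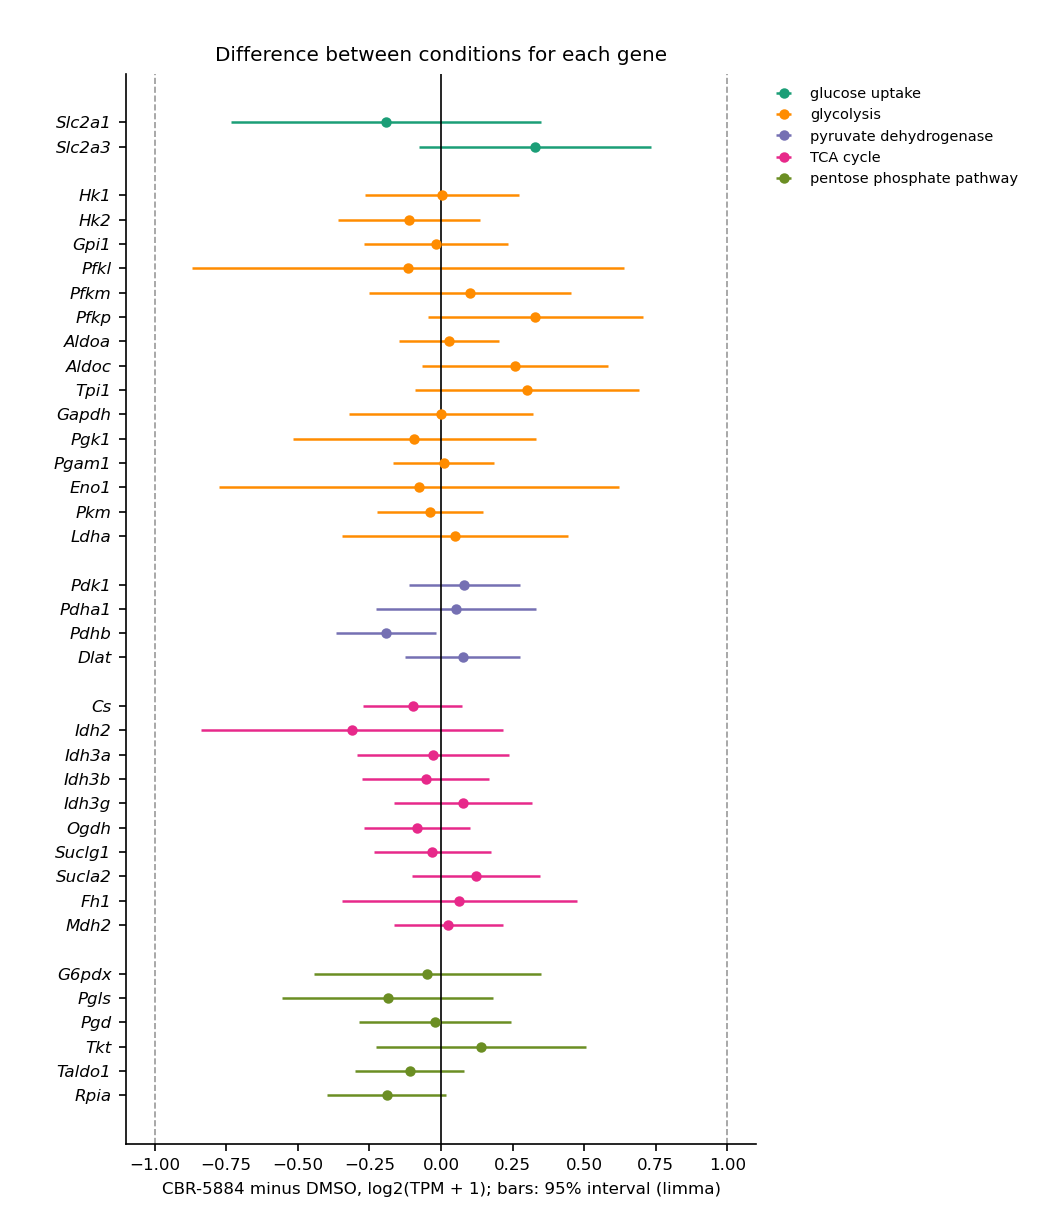
Difference between CBR-5884 and DMSO for each of the 37 genes on the log2(TPM + 1) scale, ordered and coloured by pathway. Points are limma estimates and bars their 95% intervals, dashed lines mark a 2-fold change, and the interval of Pdhb (-0.37 to -0.02) is the only one of the 37 that leaves out 0.

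Levels differed widely between the genes in the same cells. Mdh2, the mitochondrial malate dehydrogenase, had the highest level of the 37 taken singly, without gene copies added. It had 1008 and 955 TPM under DMSO and 978 and 1020 TPM under CBR-5884. Idh2, the mitochondrial isocitrate dehydrogenase that uses NADP, had the lowest, at 4.75 to 7.43 TPM. In all, 15 of the 37 genes had a mean of at least 100 TPM and 5 had one under 20 TPM (Slc2a3, Pfkl, Pfkm, Pfkp and Idh2). In glycolysis, Gpi1, Pkm, Gapdh, Pgam1 and Aldoa were above 200 TPM in each library, while the 3 phosphofructokinase genes stayed under 20 TPM each.

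**Figure D2:**
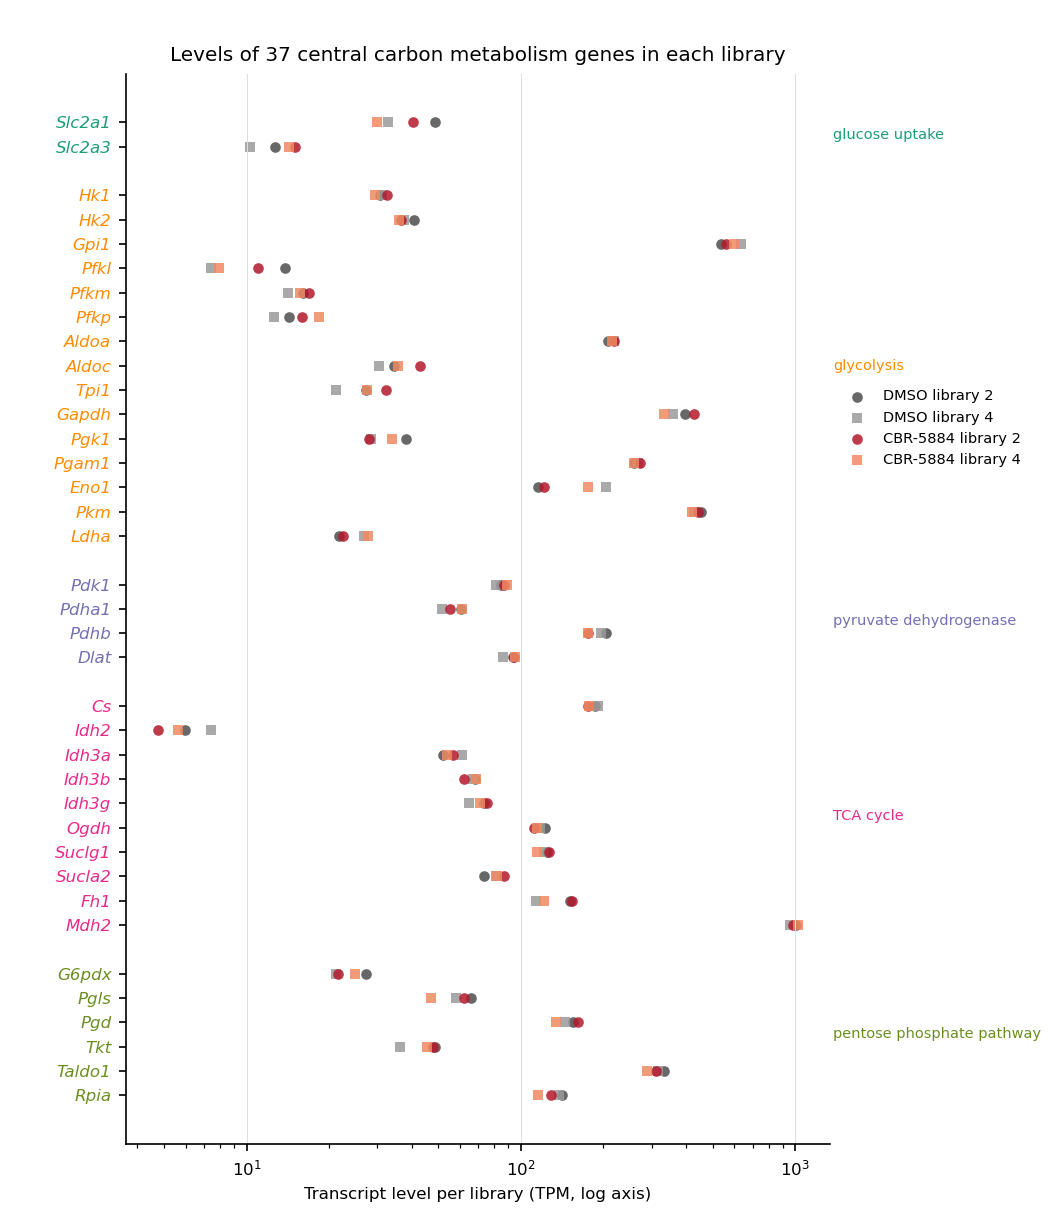
Level of each of the 37 genes in each of the 4 libraries (TPM, log axis), grouped by pathway. The order of the genes from Mdh2 down to Idh2 is the same across libraries at both ends, while the 4 libraries of most genes lie close together, and Slc2a1, Pfkl and Eno1 are spread more by library number than by condition.

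Slc2a1 and Slc2a3 encode glucose transporters of the plasma membrane, Slc2a3 being the one with the higher affinity for glucose. Slc2a1 had 48.7 and 32.7 TPM under DMSO and 40.4 and 30.0 TPM under CBR-5884. Its groups overlapped, and library 2 was the higher one in both conditions, as it was for the Sertoli marker sum. The part of the cell mix in this was not tested. Slc2a3 had 12.7 and 10.3 TPM under DMSO and 15.0 and 14.3 TPM under CBR-5884, so both CBR-5884 libraries were above both DMSO libraries. The difference of 0.33 had a 95% interval from -0.08 to 0.73 (limma adjusted p = 0.998). Slc2a3 made up 20.7% and 23.9% of the transcripts of this pair with DMSO, and 27.0% and 32.3% under CBR-5884. With 2 against 2 libraries an exact permutation test cannot go below a two-sided p of 0.33, so such shares were not tested.

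The 15 glycolytic genes had a median difference of 0.003, with 8 of 15 above 0, and summed to 2267 ± 77.7 TPM under DMSO and 2255 ± 30.2 TPM under CBR-5884 (SD, n = 2 each). Hexokinase, which traps glucose by phosphorylation, was shared by Hk1 (29.4 to 32.5 TPM) and Hk2. Hk2, the form known to be induced in growing cells, had 40.9 and 37.5 TPM under DMSO and 36.5 and 35.9 TPM under CBR-5884. Both CBR-5884 libraries lay lower, by 0.11 on the log2 scale with a 95% interval from -0.36 to 0.14. Gpi1, the phosphoglucose isomerase, had the highest level of the 15 taken singly, with 538 and 636 TPM under DMSO and 557 and 600 TPM under CBR-5884. Gapdh summed with its near-identical gene copies, described below, was higher, at 986 to 1125 TPM.

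Phosphofructokinase commits sugar to glycolysis, and its liver (Pfkl), muscle (Pfkm) and platelet (Pfkp) subunits were expressed at like levels. Pfkp had 14.3 and 12.6 TPM under DMSO and 15.9 and 18.4 TPM under CBR-5884. The groups did not overlap, and the difference of 0.33, the highest of the 37, had a 95% interval from -0.05 to 0.70 (limma adjusted p = 0.998). Pfkl had 13.8 and 7.45 TPM under DMSO and 11.0 and 7.91 TPM under CBR-5884, again higher in library 2 of each condition. Pfkm stayed at 14.2 to 16.9 TPM. Pfkp was 32.3% and 36.8% of the transcripts of these 3 genes with DMSO and 36.4% and 43.8% under CBR-5884, which overlapped.

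Aldolase splits the sugar into a pair of trioses, and triose phosphate isomerase (Tpi1) brings both into the same stream. Aldoa stayed at 208 to 219 TPM, while Aldoc, the form known from brain, had 34.5 and 30.4 TPM under DMSO and 42.8 and 35.5 TPM under CBR-5884. Aldoc was thus higher in both CBR-5884 libraries, although the margin between the closest libraries was small, and its difference was 0.26 with a 95% interval from -0.07 to 0.58. A second gene entry under the name Aldoa had a mean of 0.63 TPM and was not tested. Tpi1 had 27.2 and 21.2 TPM under DMSO and 32.3 and 27.5 TPM under CBR-5884. Its groups were apart by a narrow gap, with a difference of 0.30 and a 95% interval from -0.09 to 0.69 (limma adjusted p = 0.998).

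Several enzymes of the second stage of glycolysis have processed gene copies elsewhere in the genome whose sequence is nearly the same, and reads from such a pair can be divided between them in more than 1 way. Of the 37 genes, 8 shared at least 10% of their 31-base words with a distant gene that itself held at least 20% of its words in common (Gpi1, Gapdh, Pgk1, Pgam1, Eno1, Pkm, Pdhb and Taldo1). For 17 of the 37 genes under 1% of words were shared with any other gene. Ldha (19.6%), Aldoa (17.0%) and Tpi1 (10.5%) shared words with other genes although no single gene met both limits. Their levels are given without such genes added. The following stretches of 60 bases are shown because they let a reader see how little separates gene and copy. They were taken from the GENCODE M21 transcripts on GRCm38, the assembly also called mm10, on the transcript's strand. Each was the stretch of the aligned coding sequence with the most differences, and capitals mark the bases of the copy that differ.
Gapdh: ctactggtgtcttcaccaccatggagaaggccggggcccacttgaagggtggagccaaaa
Gm7336: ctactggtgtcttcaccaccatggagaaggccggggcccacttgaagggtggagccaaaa
Gm13394: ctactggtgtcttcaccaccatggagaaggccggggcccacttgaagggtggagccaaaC
Eno1: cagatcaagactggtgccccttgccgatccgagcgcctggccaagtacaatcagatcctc
Gm4735: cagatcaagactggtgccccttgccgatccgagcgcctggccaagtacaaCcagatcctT
Pgam1: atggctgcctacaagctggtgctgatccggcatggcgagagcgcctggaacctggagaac
Pgam1-ps2: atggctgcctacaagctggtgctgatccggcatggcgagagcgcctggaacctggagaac
Pdhb: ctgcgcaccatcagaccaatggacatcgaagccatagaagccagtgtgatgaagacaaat
Gm6123: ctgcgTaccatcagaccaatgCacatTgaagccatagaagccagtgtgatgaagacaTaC

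Over the whole coding sequence, Gm7336 (chr7:51746647-51747878) was identical to Gapdh (chr6:125161715-125166467) at 999 of 999 bases, and Gm13394 (chr2:28933610-28934609) at 998 of 999. Pgam1-ps2 (chr7:27469771-27470535) was identical to Pgam1 (chr19:41911923-41918660) at 762 of 762 bases. Gm4735 (chr2:80837141-80838442) differed from Eno1 (chr4:150236721-150248879) at 5 of 1302 bases. Gm6123 (chr1:4771131-4772199) differed from Pdhb (chr14:8165996-8173025) at 19 of 1065 aligned bases, with 2 gaps. For these genes the levels are therefore given for the gene, for its copies and for their sum.

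Gapdh, which makes the NADH of glycolysis, had 398 and 358 TPM under DMSO and 428 and 333 TPM under CBR-5884, and the groups overlapped. Its copy Gm13394 was listed at 422 and 394 TPM under DMSO and at 426 and 363 TPM under CBR-5884, which is as high as Gapdh itself. Gm7336 was listed at 292 and 312 TPM under DMSO and at 261 and 282 TPM under CBR-5884. With all 47 copies added, the sum was 1125 and 1077 TPM under DMSO and 1124 and 986 TPM under CBR-5884. Gapdh alone was 33.3% to 38.1% of that sum. The difference of the sum was -0.06 with a 95% interval from -0.29 to 0.16.

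Eno1, the enolase that makes phosphoenolpyruvate, showed the widest spread between libraries of 1 condition among the abundant genes. It had 116 and 204 TPM under DMSO and 121 and 175 TPM under CBR-5884, so that library 4 was the higher one in both conditions. The opposite held for Eno1b, a gene of nearly the same sequence, which had 229 and 152 TPM under DMSO and 246 and 140 TPM under CBR-5884. Once Eno1b and Gm4735 were added, the sum was 388 and 390 TPM under DMSO and 420 and 372 TPM under CBR-5884. The split by library number was not present in the sum, and Eno1 made up 28.8% to 52.2% of it. The 95% interval of the difference narrowed from -0.78 to 0.62 for Eno1 alone to -0.18 to 0.23 for the sum, and the estimate went from -0.08 to 0.02.

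Pgk1, the kinase that makes the phosphoglycerate from which serine synthesis starts, had 38.1 and 28.3 TPM under DMSO and 27.9 and 33.9 TPM under CBR-5884. Its copy Pgk1-rs7 had 10.4 TPM in DMSO library 4 and under 1 TPM in the other libraries, and Gm5537 had 7.13 and 4.85 TPM under CBR-5884 and under 1 TPM under DMSO. The sum over Pgk1 and its 3 copies was 38.4 and 39.3 TPM under DMSO and 35.6 and 39.5 TPM under CBR-5884, with a difference of -0.05 and a 95% interval from -0.30 to 0.21. Summing brought the 4 libraries closer together here too.

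Pgam1, the mutase that takes phosphoglycerate onwards in glycolysis, had 259 and 268 TPM under DMSO and 272 and 259 TPM under CBR-5884, and its difference was 0.009. For this gene the copies did not even out the libraries. Pgam1-ps2 had 71.6 and 57.5 TPM under DMSO and 35.5 and 38.9 TPM under CBR-5884, and the sum was 331 and 326 TPM under DMSO and 307 and 298 TPM under CBR-5884. The groups overlapped for Pgam1 and did not overlap for the sum, whose difference was -0.12 with a 95% interval from -0.29 to 0.05 (limma adjusted p = 0.998). Since the aligned coding sequences are identical, which of the values the reads belong to was not tested.

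**Figure D3:**
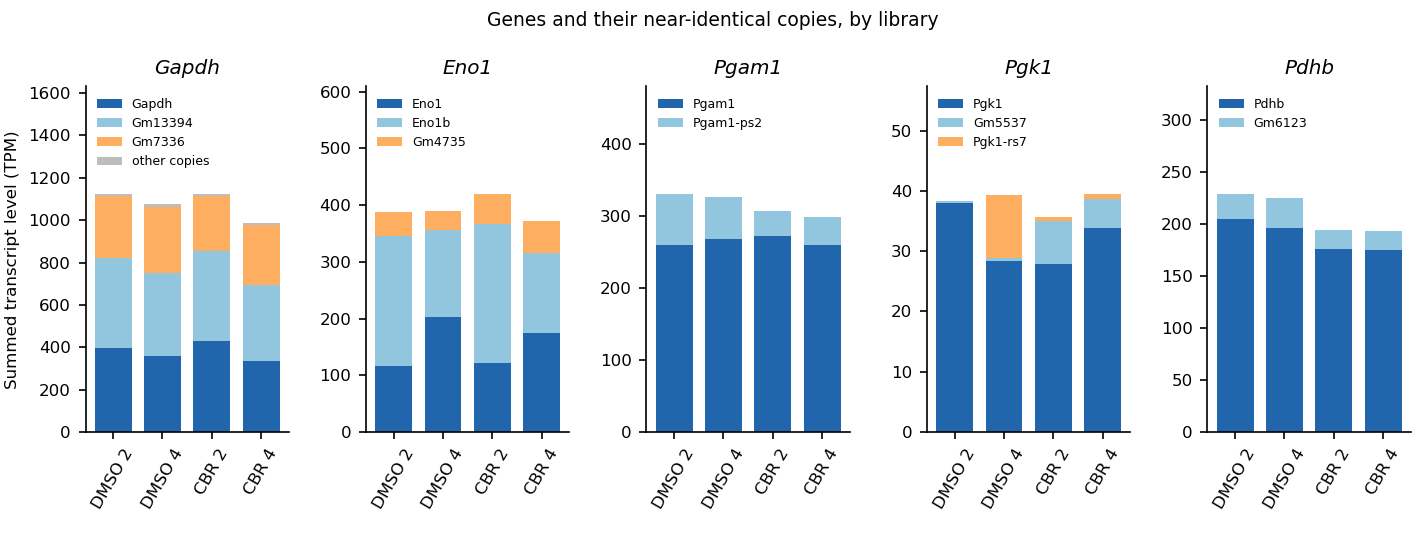
Stacked bars of the level (TPM, a separate axis per gene) of Gapdh, Eno1, Pgam1, Pgk1 and Pdhb and of their near-identical copies in each of the 4 libraries, the gene itself at the bottom. The libraries of Eno1 and of Pgk1 come together once copies are added (388, 390, 420 and 372 TPM for Eno1), while for Pgam1 and Pdhb the sums of the CBR-5884 libraries lie below those of the DMSO libraries.

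Pkm, the pyruvate kinase, stayed at 419 to 455 TPM. Its copy took under 1% of the sum. Ldha, the lactate dehydrogenase subunit known from muscle, had 21.8 and 26.7 TPM under DMSO and 22.5 and 27.8 TPM under CBR-5884. Library 4 was higher in both conditions by about the same amount, and the difference between conditions was 0.05 with a 95% interval from -0.35 to 0.44. Ldhb, the heart subunit, had 44.6 and 17.4 TPM under DMSO and 45.0 and 27.6 TPM under CBR-5884. Ldhb was thus high in libraries 2, as was the Sertoli marker sum. The part of the cell mix in its values was not tested. Ldha was accordingly 30.5% and 56.8% of lactate dehydrogenase transcripts with DMSO and 31.4% and 45.4% under CBR-5884.

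**Figure D4:**
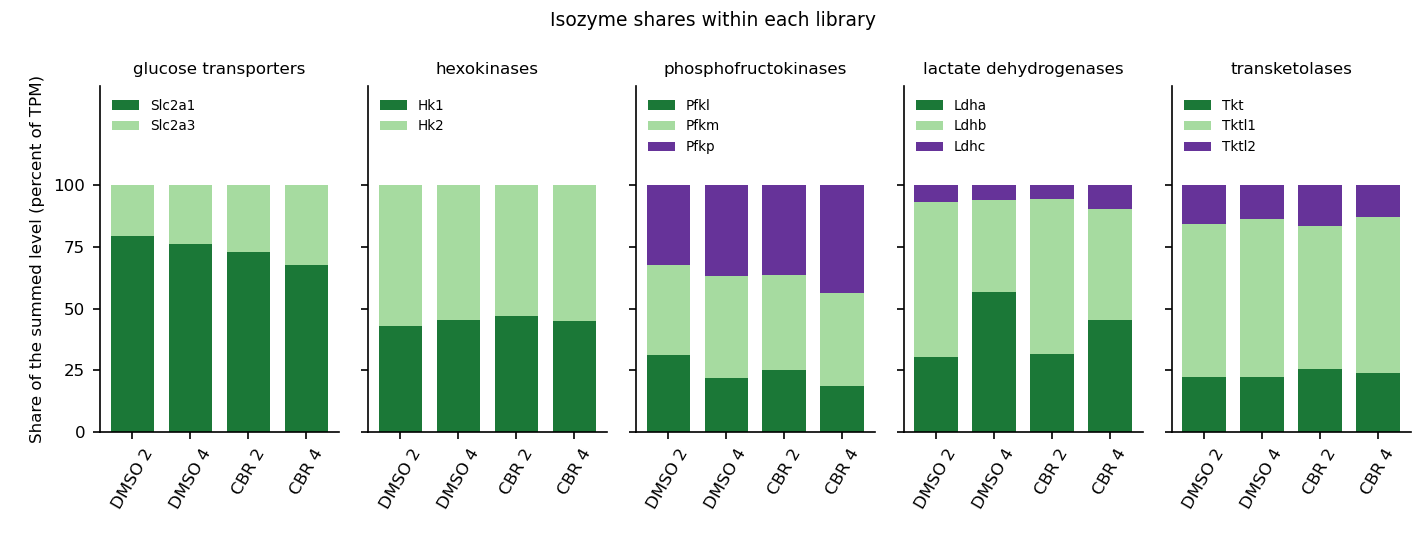
Stacked bars of each isozyme's share (percent) in the summed TPM of glucose transporters, hexokinases, phosphofructokinases, lactate dehydrogenases and transketolases, for each of the 4 libraries. Shares of lactate dehydrogenase differ more between libraries 2 and 4 than between conditions, while Slc2a3 is 20.7% and 23.9% of its pair with DMSO and 27.0% and 32.3% under CBR-5884.

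The pyruvate dehydrogenase complex joins glycolysis to the TCA cycle. Pdha1 and Pdhb encode the alpha and beta subunits of its first enzyme, Dlat the acetyltransferase core, and Pdk1 a kinase that switches the complex off. Pdhb had 205 and 196 TPM under DMSO and 175 and 175 TPM under CBR-5884. Both CBR-5884 libraries lay below both DMSO libraries, and the 2 libraries of each condition lay close together. The difference was -0.19 with a 95% interval from -0.37 to -0.02 (limma unadjusted p = 0.0368, adjusted p = 0.998). Its copy Gm6123 had 24.4 and 28.5 TPM under DMSO and 18.9 and 17.9 TPM under CBR-5884, in the same direction. Since 59.9% of the words of Gm6123 also occur in Pdhb, the values of gene and copy are not independent. The sum was 229 and 224 TPM under DMSO and 194 and 193 TPM under CBR-5884, a difference of -0.23 with a 95% interval from -0.40 to -0.06 (limma adjusted p = 0.998).

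The other 3 genes of this step had small differences above 0. Dlat had 93.6 and 86.3 TPM under DMSO and 94.5 and 95.0 TPM under CBR-5884, with a difference of 0.08 and a 95% interval from -0.13 to 0.28. Pdk1, a known target of the hypoxia-inducible factor, had 84.3 and 81.1 TPM under DMSO and 86.4 and 88.8 TPM under CBR-5884. For Pdk1 and Dlat the groups did not overlap, but the gaps were small and both intervals included 0. Pdha1 had 51.6 to 61.1 TPM with overlapping groups, and part of its sequence is shared with the neighbouring gene Map3k15. Pdha2, its intronless partner known from spermatogenic cells, made up 33.0% and 30.8% of the alpha subunit transcripts with DMSO and 33.7% and 29.1% under CBR-5884.

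The 10 TCA cycle genes had a median difference of -0.029, with 4 of 10 above 0, and summed to 1822 ± 61.2 TPM under DMSO and 1829 ± 0.89 TPM under CBR-5884 (SD, n = 2 each). The small SD under CBR-5884 holds only for these unscaled sums, as the 2 libraries totalled 997741 and 966761 TPM over all genes. Citrate synthase (Cs), which brings acetyl-CoA into the cycle, had 186 and 192 TPM under DMSO and 175 and 178 TPM under CBR-5884. Ogdh, which starts the oxoglutarate dehydrogenase step, had 123 and 117 TPM under DMSO and 112 and 114 TPM under CBR-5884. Both genes were lower in both CBR-5884 libraries, by 0.10 for Cs (95% interval -0.27 to 0.07) and by 0.08 for Ogdh (95% interval -0.27 to 0.10). With equal library totals the differences were -0.072 for Cs and -0.056 for Ogdh. The CBR-5884 library nearest to DMSO for Ogdh was library 4, which had the lowest total over all genes.

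Isocitrate dehydrogenase comes in a form that uses NAD, built from the products of Idh3a, Idh3b and Idh3g, and in forms that use NADP. The 3 subunit genes summed to 194 and 192 TPM under DMSO and 193 and 193 TPM under CBR-5884, and each of them had overlapping groups. Idh2 had 5.97 and 7.43 TPM under DMSO and 4.75 and 5.64 TPM under CBR-5884. Both CBR-5884 libraries were lower, and the difference of -0.31, the lowest of the 37, had a wide 95% interval, from -0.84 to 0.22. The cytosolic form Idh1 supplied 91.5% to 95.3% of the transcripts of these 2 NADP forms.

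Succinyl-CoA ligase has an alpha subunit, Suclg1, and a beta subunit that gives ATP, Sucla2. Sucla2 had 73.2 and 81.4 TPM under DMSO and 86.5 and 81.8 TPM under CBR-5884. It was the only one of the 10 with both CBR-5884 libraries higher, beside 13.6% of all genes tested. In the other direction 3 of the 10 were lower in both, beside 17.7% of all genes tested. The nearest libraries of the Sucla2 groups were almost level, with a 95% interval of the difference from -0.10 to 0.35. Suclg1 stayed at 115 to 127 TPM. Fumarase (Fh1) had 151 and 113 TPM under DMSO and 153 and 122 TPM under CBR-5884, higher in library 2 of each condition and with a difference of 0.06.

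In the pentose phosphate pathway 5 of 6 genes lay below 0, with a median difference of -0.078, beside -0.011 over all genes. The 6 genes summed to 742 ± 41.4 TPM under DMSO and 695 ± 55.1 TPM under CBR-5884 (SD, n = 2 each), and the single sums overlapped, with 771 and 712 TPM against 734 and 656 TPM. Leaving out 1 library moved the median, to -0.16 for CBR-5884 library 2, to -0.18 for DMSO library 4, to -0.021 for CBR-5884 library 4 and to -0.020 for DMSO library 2. With equal library totals the median was -0.052. No gene of this pathway passed the test.

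G6pdx, Pgls and Pgd form the oxidative branch that makes NADPH. G6pdx, which sets the pace of the pathway, had 27.2 and 21.1 TPM under DMSO and 21.6 and 24.9 TPM under CBR-5884. Pgls had 66.0 and 57.8 TPM under DMSO and 62.3 and 47.1 TPM under CBR-5884, and Pgd had 155 and 144 TPM under DMSO and 162 and 134 TPM under CBR-5884. The groups overlapped for all 3, and CBR-5884 library 4 was the lowest library for Pgls and Pgd. That library also had the lowest TPM total over all genes. Part of the sequence of G6pdx (11.8% of its words) is shared with the neighbouring gene Ikbkg, and part of Pgls (19.5%) with Niban3.

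The other branch exchanges carbon between sugars and is run by Rpia, Tkt and Taldo1. Rpia, the isomerase that makes ribose phosphate, had 141 and 137 TPM under DMSO and 129 and 116 TPM under CBR-5884. Both CBR-5884 libraries were lower, and the difference was -0.19 with a 95% interval from -0.40 to 0.02 (limma unadjusted p = 0.0678, adjusted p = 0.998). Taldo1, the transaldolase and the most abundant gene of the pathway, had 332 and 315 TPM under DMSO and 312 and 289 TPM under CBR-5884. Its groups did not overlap, with a difference of -0.11 and a 95% interval from -0.30 to 0.08. Tkt, the transketolase, had 48.7 and 36.4 TPM under DMSO and 47.7 and 45.4 TPM under CBR-5884, with overlapping groups and the only difference above 0 of the 6 genes, at 0.14.

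Transketolase transcripts came mostly from Tktl1, an X-linked relative of Tkt, at 134 and 104 TPM under DMSO and 109 and 121 TPM under CBR-5884. Its share of the 3 transketolase genes was 57.9% to 63.9%, against 22.4% to 25.4% for Tkt. Tktl2, an intronless relative, had 34.2 and 22.1 TPM under DMSO and 31.3 and 24.7 TPM under CBR-5884, or 12.9% to 16.7% of these transcripts, with overlapping groups. Pgk2, Ldhc and Gapdhs, forms known from later spermatogenesis, were lower than Tktl2 and Pdha2 in every library. Pgk2 was at most 1.3% of phosphoglycerate kinase transcripts, Ldhc 5.8% to 9.5% of those of lactate dehydrogenase, and Gapdhs 3.45 to 4.86 TPM.

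A further 73 genes of the same pathways, or related to them by function or name, were listed, of which 60 had a mean of at least 1 TPM. None passed the test in limma, 1 of the 60 (1.67%) had an unadjusted p under 0.05, beside 3.66% of all genes tested, and 30 lay above and 30 below 0, with a median of -0.007. The medians were 0.008 for 23 further genes listed with glycolysis and -0.005 for 10 with the pyruvate dehydrogenase step. They were 0.019 for 18 with the TCA cycle and -0.086 for 9 with the pentose phosphate pathway, of which 7 lay below 0. These lists were broad. That of glycolysis held Pgam5, Pcx, Pck2 and the carriers Slc16a1 and Slc16a3, and the 7 genes below 0 included Prps1, Prps2 and Pgm2l1. The gene with the unadjusted p under 0.05 was Prps1, which makes phosphoribosyl pyrophosphate from ribose phosphate. Prps1 had 70.1 and 91.1 TPM under DMSO and 52.9 and 61.3 TPM under CBR-5884. Both CBR-5884 libraries were lower, with a difference of -0.48 and a 95% interval from -0.84 to -0.12 (limma unadjusted p = 0.0166, adjusted p = 0.998). With its copy Prps1l3 the values were 151 and 162 TPM under DMSO and 126 and 128 TPM under CBR-5884.

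Of these 60 genes, 5 were higher in both CBR-5884 libraries (8.3%, against 13.6% of all genes). In the other direction 11 were lower in both (18.3%, against 17.7% of all genes). The abundant genes among the 60 differed little. Succinate dehydrogenase links the TCA cycle to respiration. Sdha had 431 and 378 TPM under DMSO and 385 and 361 TPM under CBR-5884, Sdhb had 161 to 171 TPM, and Sdhc had 217 to 243 TPM. The pyruvate carrier subunit Mpc2 (153 to 180 TPM), malic enzyme Me2 (165 to 170 TPM), ATP citrate lyase Acly (324 to 368 TPM) and glutamate dehydrogenase Glud1 (112 to 124 TPM) had adjusted p values of 0.998 in limma. Without scaling to equal library totals, Sdhb and Glud1 were lower in both CBR-5884 libraries, with nearest libraries almost level. These were at 165.96 and 165.54 TPM for Sdhb and at 121.07 and 120.75 TPM for Glud1 (DMSO, then CBR-5884). The groups of the other abundant genes named here overlapped.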

How the data were processed

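The members and gene lists were chosen with earlier results of these data known. Each TruSeq RNA library was made from 100 ng of total RNA, per the labels' protocols. The submitters' processing notes name kallisto, fastp and mm10; the sources used here give no versions, settings or strand handling. From the deposited table (469612 lines, 117403 transcripts, 36088 genes), in which all transcripts of a gene repeat its value, a single line for each gene in each library was used. Per the file headers, the deposited signal values are TPM and scaled reads per base. Library totals of the deposited TPM lay between 966761 (CBR-5884 library 4) and 1002976 (DMSO library 2), so the authors had rescaled them. They are not counts: 34.5% to 35.6% of low scaled reads (up to 20.5 steps, tolerance 0.05) were whole multiples of a step. Reads per library were estimated from that step.

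A two-sided limma-trend fit (limma 3.58.1, R 4.3.3) with no covariate was made on log2(TPM + 1) for the 14920 genes whose mean TPM reached 1. The other 21168 were left out. p-values were Benjamini-Hochberg adjusted over all genes tested, with a threshold of 0.05. The fit was tested on simulated data. Intervals rest on the spread between libraries, which limma moderates towards the trend over all genes, and counting error was not modelled separately. All 37 members are named, with genes of the same pathways that had a mean TPM of at least 100, an unadjusted p under 0.05 or a testis-specific form; some genes that meet this rule are not reported here. Copies were sought in GENCODE M21 (GRCm38), which held 35872 of the 36088 genes, as genes more than 20000 bases away sharing 31-base words. The table's library numbers 2 and 4 could not be matched to the labelled replicates 1 and 2, so only each library's condition was used. Alternatives covered the pseudocount, filter, scaling, measure, variance model, a replicate block, each library left out and, chosen after seeing the data, copies summed with their gene.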

Additional observations from a re-analysis of the deposited data

How the results depend on the processing

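No gene of the 37 passed the threshold under any of 15 alternatives, and the lowest limma adjusted p of any of them was 0.711. Over all genes, robust variance estimates and scaled reads per base each called 1 gene, none of the 37. The genes at an unadjusted p under 0.05 numbered 546, against 1079 with no filter on low values, and 393 to 1034 with a library left out. Among the 37 the number was 1, against 0 with equal library totals, with quantile normalization and with scaled reads per base, and 0 to 2 with a library left out. With a replicate block on the library number it was 4 (Aldoc, Pdhb, Rpia and Tpi1), with 797 genes in all and 0 called (limma adjusted p of at least 0.118). Across genes, libraries of different conditions correlated at 0.986 for number 2 and 0.98 for number 4. Within a condition this was 0.978 for DMSO and 0.981 for CBR-5884. Deviations of same-numbered libraries correlated at 0.2. The labels tie no numbers, so the libraries were not treated as paired. The median of the TCA cycle went from -0.029 to -0.002 with equal totals and ran from -0.066 to 0.003 with a library left out. That of glycolysis went from 0.003 to 0.03 with equal totals and 0.056 with quantile normalization, and ran from 0.006 to 0.042. That of the pyruvate dehydrogenase step ran from -0.022 to 0.122, that of the pentose phosphate pathway from -0.178 to -0.02 and that of glucose uptake from -0.143 to 0.277. The cause was not tested. Of the 37 genes, 15 kept 1 sign in every setting. The other 22 changed sign in at least 1, with a difference of at most 0.193 in size, 5 of them under another scaling or measure (Gapdh, Gpi1, Hk1, Pgd and Pkm) and 2 with copies summed (Eno1 and Pgam1). Under another scaling or measure the median of all genes, -0.011, lay between -0.0163 and 0.0147.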

Other observations

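Several glycolytic genes are known targets of the hypoxia-inducible factor, so other genes of that response were also read. Of 19 such genes outside the pathways, 18 were tested, and none passed the test in limma. None of the 18 had an unadjusted p under 0.05, 11 lay above 0 and the median was 0.012. Vegfa, the endothelial growth factor, had 10.5 and 11.2 TPM with DMSO and 14.4 and 13.0 TPM with CBR-5884. Its groups did not overlap, which held for 1 of the 18 genes (5.6%) and for 31.3% of all genes tested, and it had a difference of 0.31 and a 95% interval from -0.07 to 0.68 (limma unadjusted p = 0.0935, adjusted p = 0.998). Bnip3l, a receptor for removal of mitochondria, stayed at 367 to 384 TPM, Higd1a at 140 to 152 TPM and the oxygen sensor Egln2 at 92.6 to 110 TPM.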
